A study of Mus musculus with 10 samples.

Results

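Chromatin of 10 genes typical of retinal ganglion cells was examined in Glast+ cells sorted from mouse retina, a preparation aimed at another cell type. The genes were listed by name and all 10 were found among the 21887 protein-coding genes that lay on the chromosomes of the data. They are the transcription factor genes Pou4f1, Pou4f2, Pou4f3, Isl2 and Eomes, the RNA-binding protein gene Rbpms, and Sncg, Thy1, Slc17a6 and Nefl, which encode a synuclein, a surface glycoprotein, a glutamate transporter and a neurofilament subunit. The cells came from retinas of C57BL/6 mice at postnatal day 28, with no genetic change and no treatment named in the labels. Glast, encoded by Slc1a3, is a glutamate transporter of Müller glia, the main glia of the retina, and also of astrocytes, so the sort defines the cells by 1 surface protein. The modifications H3K4me3, H3K4me1, H3K27me3 and H3K9me3 were mapped by ChIP-seq, each in 2 experiments, Exp1 and Exp2, and enriched stretches, called islands, were deposited for each of the 8 libraries. The 2 input libraries were not analysed here. The labels do not say whether the experiments used separate animals, so their spread may be partly technical. The lists hold no read counts, and the depth behind them is therefore unknown.

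Retinal ganglion cells are the output neurons of the eye, and their axons form the optic nerve. The POU factors Pou4f1, Pou4f2 and Pou4f3, also called Brn3a, Brn3b and Brn3c, and the LIM homeodomain factor Isl2 are used in their differentiation, and the T-box factor Eomes in a subset that includes the light-sensitive ganglion cells. H3K4me3 is typical of active starts, H3K4me1 of enhancers and of the flanks of starts, H3K27me3 of Polycomb repression and H3K9me3 of heterochromatin. Genes of other lineages are commonly held under H3K27me3 in a differentiated cell, in part with H3K4me3 on the same promoter, a combination called bivalent.

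The preparation was checked by markers. An H3K4me3 island was at an end, in both experiments, of 6 of 7 markers of Müller glia, the exception being Aqp4. It was also at an end of 4 of 5 rod markers, all but Sag, and of 3 of 3 cone markers. By the same rule it was at 58.6% of all protein-coding genes, so these small counts say little about which cells were present. Of the Müller glia markers 2, Rlbp1 and Sox9, also had H3K27me3 at the same end. H3K27me3 was at an end of 0 of 5 rod and 0 of 3 cone markers, against 23.3% of all genes, so these counts also say little. In Exp1 alone it was at the cone markers Opn1sw and Gnat2. H3K4me3 was at 0 of 3 markers each of astrocytes, microglia and endothelium. The covered share of the gene with 50 kb on both sides set rod markers above Müller glia markers. For H3K4me3 its median was 22.0% at rod, 11.7% at cone and 5.99% at Müller glia markers. For H3K4me1 it ran from 43.4% to 93.8% at rod markers, 4.69% to 30.2% at cone markers and 7.47% to 36.5% at Müller glia markers. The share of neurons among the sorted cells is not known, and islands pool many cells, so marks that coincide may come from different cells and fewer cells with a mark cannot be told apart from less of it per cell. What part other cells have in the marks at the ganglion cell genes was not tested.

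Polycomb chromatin lay over 7 of the 10 genes. A gene was counted as marked when an island came within 1 kb of the same annotated end in both experiments. H3K27me3 met this rule at Pou4f1, Pou4f2, Pou4f3, Isl2, Eomes, Slc17a6 and Nefl, against 23.3% of all protein-coding genes. H3K9me3 met it at 0 of the 10, where 13.4% of all genes did, and in a list of 10 this is too near that share to be a feature of the list. H3K4me1 was at 8 of the 10, all but Sncg and Slc17a6 (54.6% of all genes). H3K4me3 was at 5, namely Pou4f1, Eomes, Rbpms, Thy1 and Nefl (58.6% of all genes), a share near that of all genes and so no feature of the list. Both H3K4me3 and H3K27me3 lay at the same end of Pou4f1, Eomes and Nefl, a state found at 5.74% of all genes. H3K27me3 without H3K4me3 at either end was the state of Pou4f2, Pou4f3, Isl2 and Slc17a6, against 16.6% of all genes. Each of these counts was the same in Exp1 alone and in Exp2 alone, but the shares of all genes were higher. In Exp1 and Exp2 alone these shares were 66.2% and 56.5% for H3K4me1 and 29.3% and 27.1% for H3K27me3. For both marks at the same end they were 7.83% and 8.48%. The counts are those of a chosen list and carry no test. By role, H3K27me3 was at 5 of the 5 transcription factor genes and at 2 of the other 5, and H3K4me3 at 2 and 3.

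**Figure D1:**
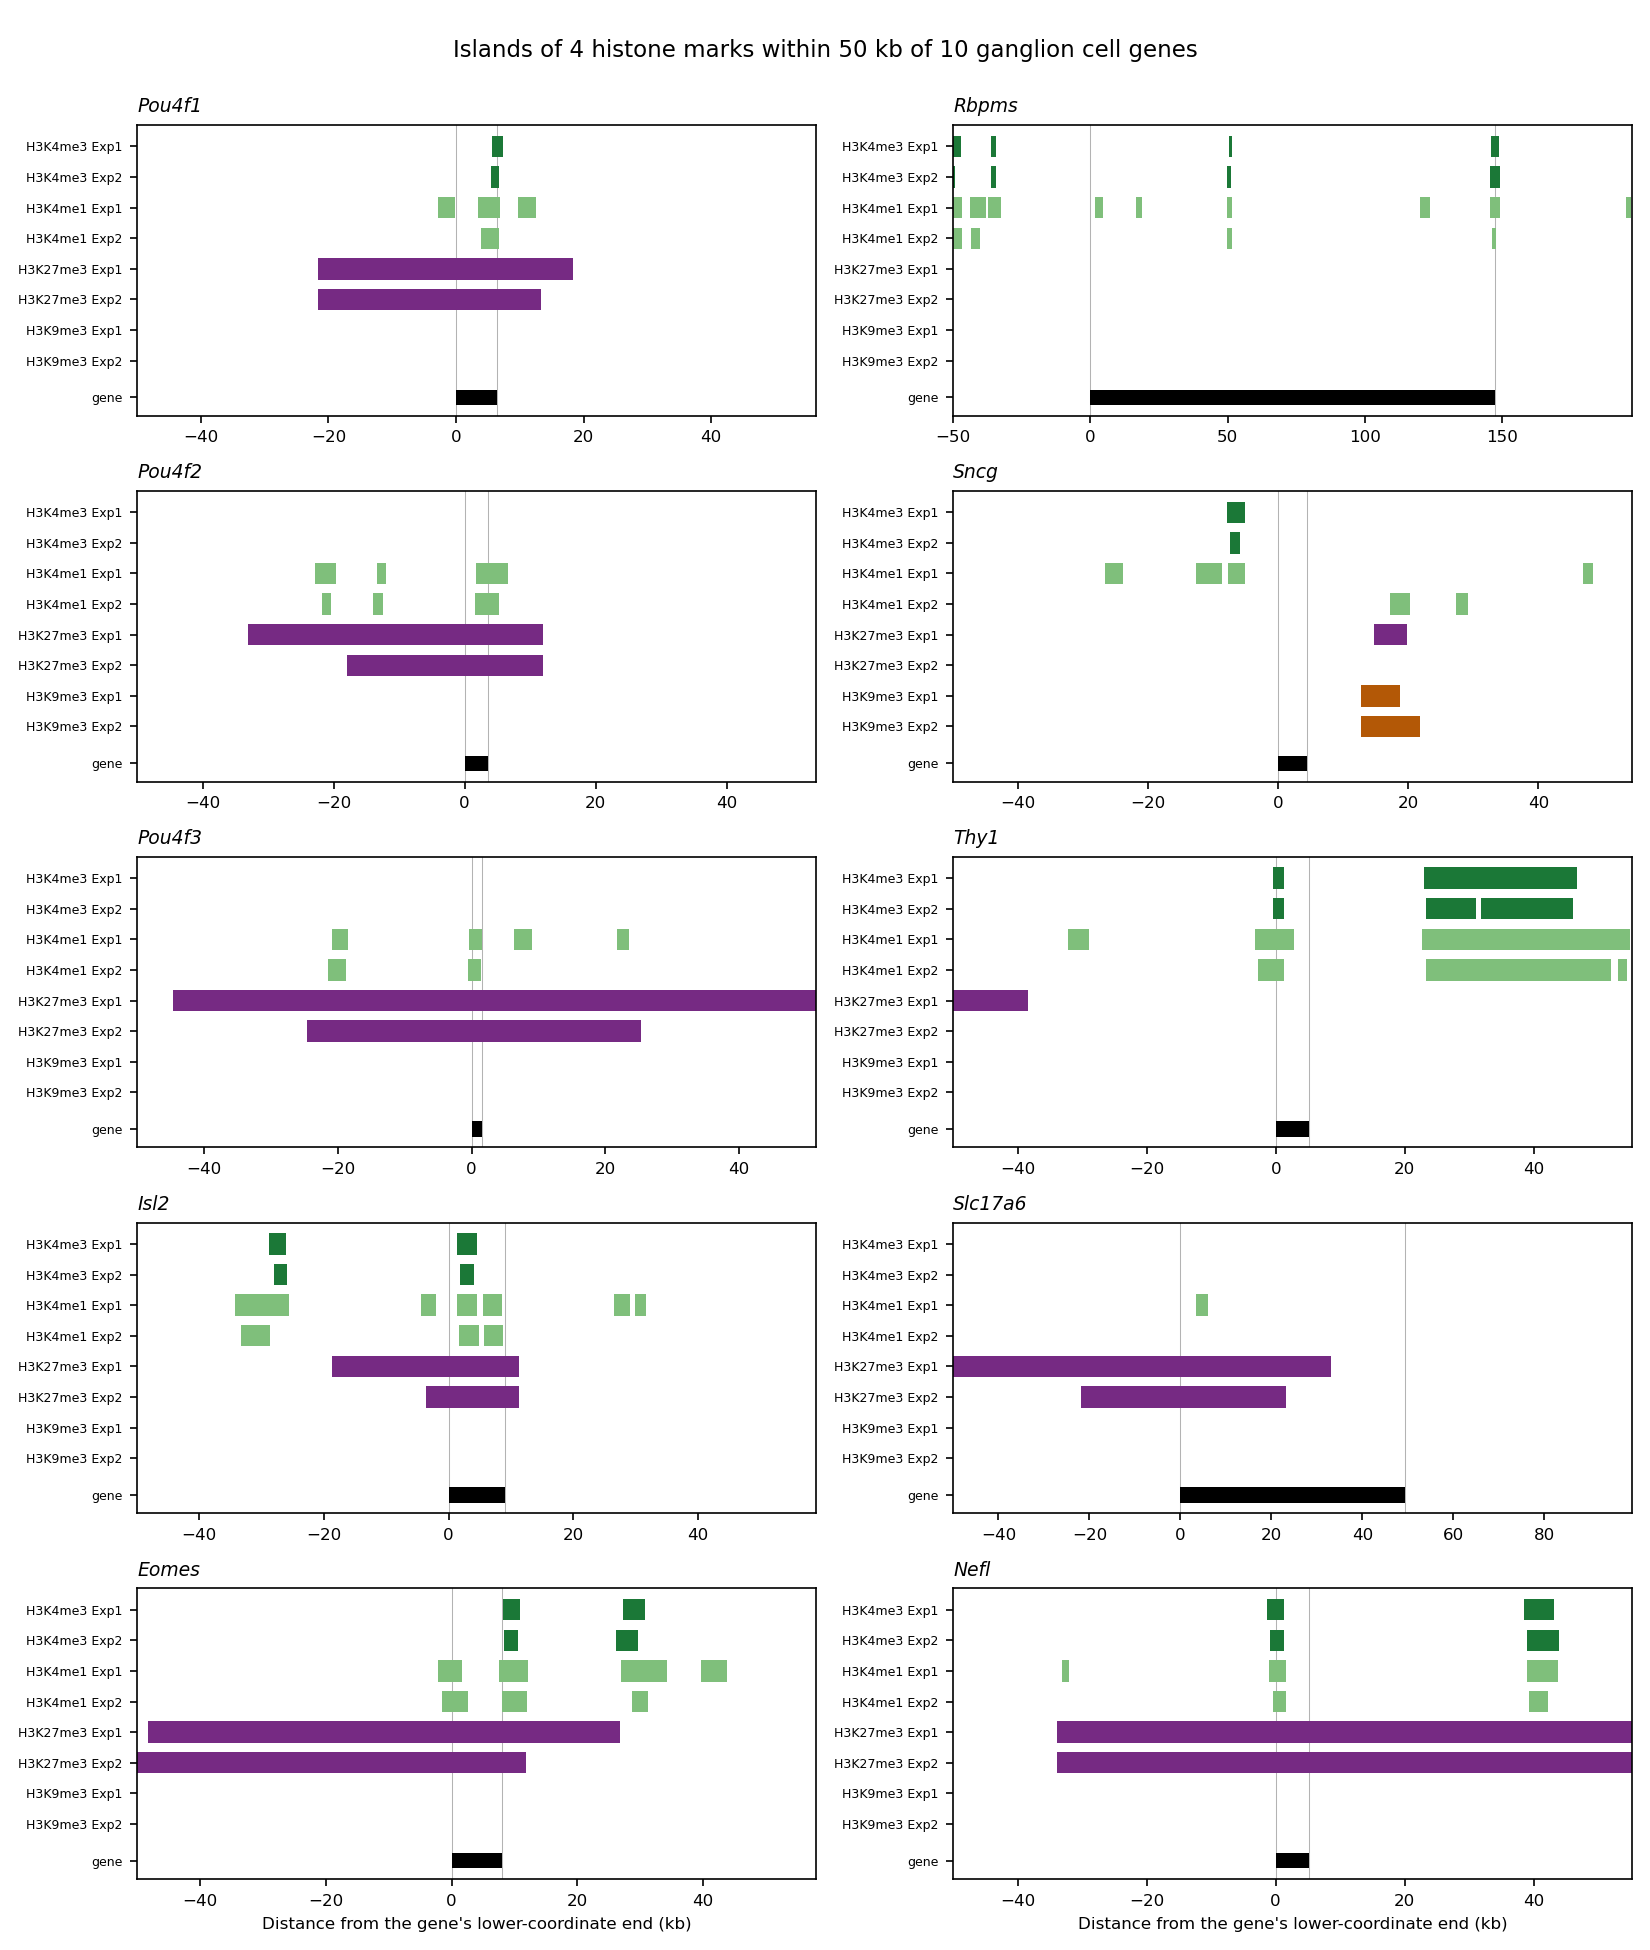
Islands of the 4 marks around each gene, 1 panel per gene. The horizontal axis is the distance in kb from the end with the lower coordinate, whatever the strand, each row is 1 library, bars are islands and the black bar is the gene, and islands are drawn only as far as 50 kb from it. H3K27me3 (purple) lies over 7 genes in both experiments and H3K9me3 (orange) lies near Sncg alone.

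Pou4f1 (chromosome 14, 104461675 to 104468118), a factor of ganglion cell survival and of several sensory neurons, lay inside H3K27me3 islands of 40 kb (Exp1) and 35 kb (Exp2). The mean width was 37.5 kb ± 3.54 (SD, n = 2). The authors' p-values for these islands were 1.14e-180 and 1.41e-139, and 5.36% and 5.31% of the islands of their lists had a value as low. A narrow H3K4me3 island of 1.6 and 1.2 kb sat at the end with the higher coordinate, over the start site of this gene. It was also covered by H3K4me1 over 3.4 and 2.8 kb. The start of Pou4f1 thus carried 3 of the 4 marks in both experiments, while the other end carried H3K27me3 and, in Exp1 alone, H3K4me1.

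Pou4f2 (chromosome 8, 78433009 to 78436647) acts early in ganglion cell differentiation. Its H3K27me3 islands were 45 and 30 kb wide (mean 37.5 kb ± 10.6, SD, n = 2) and shared their right border, 12.0 kb from the left end of the gene. The authors' p-values were 6.23e-132 and 2.19e-88. No H3K4me3 island was found within 50 kb in either experiment, and the nearest were 69.2 and 70.0 kb away. H3K4me1 was nevertheless present over the start, in islands of 4.8 and 3.6 kb, and at 2 further places on the downstream side in both experiments. These places were 19.6 and 12.0 kb from the gene in Exp1 and 20.4 and 12.4 kb in Exp2. In Exp1 all 3 H3K4me1 islands lay inside the H3K27me3 island, and in Exp2 2 of 3 did.

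Pou4f3 (chromosome 18, 42394597 to 42396093) is best known from hair cells of the inner ear and is also made in ganglion cells. H3K4me1 covered 100% of this short gene in Exp1 and 93.8% in Exp2, in islands of 2.0 kb each. The surrounding H3K27me3 island was 140 kb wide in Exp1 and 50 kb in Exp2 (mean 95 kb ± 63.6, SD, n = 2), so its extent differed more between experiments than its presence. The nearest H3K4me3 islands were 115 and 82.7 kb away. As at Pou4f2, a separate H3K4me1 island lay inside the Polycomb island in both experiments, 18.4 kb to the left of the gene in Exp1 and 18.8 kb in Exp2.

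Isl2 (chromosome 9, 55538677 to 55547667) had the smallest H3K27me3 islands of the 7 genes, at 30 and 15 kb (mean 22.5 kb ± 10.6, SD, n = 2). They covered 100% of the gene in both experiments and reached 11.3 kb from its left end, just into the neighbouring gene Scaper. H3K4me3 was at neither annotated end, yet islands of 3.2 and 2.2 kb lay within the gene, from 1.3 to 4.5 kb in Exp1 and from 1.9 to 4.1 kb in Exp2. The start site in the RefSeq promoter table lies 2.5 kb from the annotated left end, inside both of these islands. Measured from that start site, Isl2 therefore carried H3K4me3, H3K4me1 and H3K27me3 together.

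Eomes (chromosome 9, 118478186 to 118486132) showed the reverse arrangement. H3K27me3 islands of 75 and 170 kb covered 100% of the gene (mean 122 kb ± 67.2, SD, n = 2). Its H3K4me3 islands, 2.6 and 2.2 kb wide, began 0.269 and 0.469 kb beyond the far end of the gene and lay over the lncRNA gene Gm33460, which is annotated from 8.1 to 11.6 kb from the start of Eomes. The start of Eomes had no H3K4me3 in either experiment. It had H3K4me1 islands of 3.8 and 4.2 kb. The joint H3K4me3 and H3K27me3 marking of Eomes was thus at its 3′ end.

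**Figure D2:**
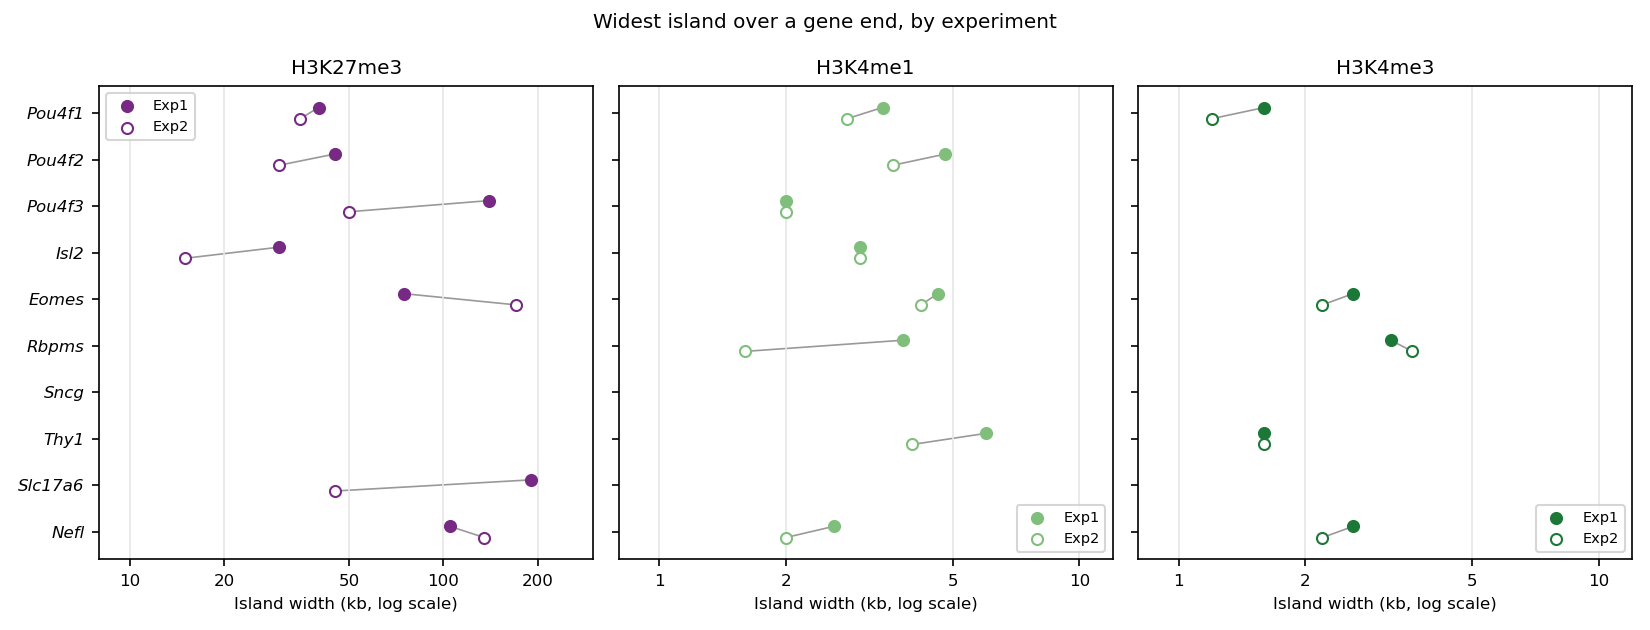
Width of the widest island within 1 kb of a gene end, on a log axis in kb, with filled points for Exp1 and open points for Exp2, 1 row per gene and 1 panel per mark. H3K27me3 widths run from 15 kb at Isl2 to 190 kb at Slc17a6, H3K4me3 widths only from 1.2 kb at Pou4f1 to 3.6 kb at Rbpms, and Sncg has no island at an end.

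Among the genes of mature ganglion cell function, Slc17a6 (chromosome 7, 51621830 to 51671126) encodes VGLUT2, which loads glutamate into synaptic vesicles. Its H3K27me3 islands were 190 and 45 kb wide (mean 118 kb ± 103, SD, n = 2). They covered 67.3% of the gene in Exp1 and 47.0% in Exp2, always its start and never its far end. H3K4me3 was 110 and 75.5 kb away. The only H3K4me1 island within 50 kb was one of 2.8 kb in Exp1, from 3.4 to 6.2 kb into the gene, and in Exp2 the nearest was 110 kb away. Slc17a6 was the one gene of the 10 with H3K27me3 at an end and no H3K4me1 at an end in either experiment.

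Nefl (chromosome 14, 68083863 to 68089095), the neurofilament light chain gene, lay in H3K27me3 islands of 105 and 135 kb (mean 120 kb ± 21.2, SD, n = 2). Both islands also contained Nefm, the medium chain gene, 35.7 to 41.1 kb to the right. H3K4me3 was found over the left end of Nefl, 2.6 and 2.2 kb wide, and at Nefm, 4.6 and 5.0 kb wide. The authors' p-values of the H3K4me3 islands at Nefl were 1.61e-10 and 3.37e-23, and 90.7% and 68.2% of the islands of those lists had a value at or below them. This pair of neurofilament genes shared 1 Polycomb island and each had H3K4me3. They share a locus and are not independent of each other.

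The remaining 3 genes lay outside Polycomb islands in both experiments. Rbpms (chromosome 8, 33782643 to 33929922), widely used as a marker of all ganglion cells, had no H3K27me3 island within 50 kb, and the nearest were 245 and 603 kb away. Its H3K4me3 islands at the right end were 3.2 and 3.6 kb wide, with authors' p-values of 5.96e-171 and 1.68e-140, the lowest of the 5 genes with H3K4me3 at an end. A second H3K4me3 island, 1.0 and 1.6 kb wide, lay about 50 kb into the gene in both experiments, together with H3K4me1.

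Thy1 (chromosome 9, 44043384 to 44048579), whose promoter is often used to label ganglion cells in transgenic mice, had H3K4me3 islands of 1.6 kb at its left end in both experiments. H3K4me1 spread over 6.0 and 4.0 kb at the same place. H3K27me3 came within 38.4 kb in Exp1 and 83.4 kb in Exp2. The next H3K4me3 to the right, from 23.0 kb on, lay over Usp2 and was far wider, with 1 island of 23.6 kb in Exp1 and 2 of 7.8 and 14.2 kb in Exp2.

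Sncg (chromosome 14, 34370274 to 34374669), the gene of gamma-synuclein, was free of all 4 marks over the gene and at both ends in both experiments. H3K4me3 lay 5.07 and 5.87 kb to its left. On the other side, inside the neighbouring gene Mmrn2, H3K9me3 islands of 6.0 and 9.0 kb began 8.33 kb from Sncg in both experiments. This was the only H3K9me3 island within 50 kb of any of the 10 genes. A 5.0 kb H3K27me3 island lay 10.3 kb away in Exp1, and in Exp2 the nearest was 325 kb away.

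The ends of a gene include sites that are not starts, so the marks were also read within 1 kb of the start sites in the RefSeq promoter table, which holds 7 promoters of 6 of the genes (Pou4f1, Pou4f2, Isl2, Eomes, Sncg and Slc17a6). Pou4f3, Rbpms, Thy1 and Nefl have no entry. H3K27me3 was at 5 of the 6 genes (21.6% of the 17492 protein-coding genes with an entry), H3K4me1 at 4 (54.4%), H3K4me3 at 2 (60.2%) and H3K9me3 at 0 (12.5%). Both H3K4me3 and H3K27me3 lay at the start sites of Pou4f1 and Isl2, against 5.41% of genes. H3K27me3 without H3K4me3 lay at those of Pou4f2, Eomes and Slc17a6, against 16.2%. Compared with the count at gene ends, Isl2 gained H3K4me3 and Eomes lost it. The promoters of these 5 genes are printed from the RefSeq table (GRCm38.p6), 5′ to 3′ on the strand of the gene, 250 bases before the start site and 50 from it on, with CpG dinucleotides in capitals. H3K27me3 islands covered all 300 bases of each in both experiments. Those of Pou4f1 (chr14:104467950-104468249, minus strand) and Isl2 (chr9:55540899-55541198, plus strand) were also fully covered by H3K4me3:
Pou4f1: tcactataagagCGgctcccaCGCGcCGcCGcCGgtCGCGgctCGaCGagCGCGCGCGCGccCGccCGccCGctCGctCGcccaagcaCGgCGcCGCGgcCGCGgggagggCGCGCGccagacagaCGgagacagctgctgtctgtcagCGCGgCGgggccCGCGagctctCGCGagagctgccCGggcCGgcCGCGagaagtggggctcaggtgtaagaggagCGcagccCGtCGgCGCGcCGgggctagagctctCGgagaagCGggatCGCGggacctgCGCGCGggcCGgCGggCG
Isl2: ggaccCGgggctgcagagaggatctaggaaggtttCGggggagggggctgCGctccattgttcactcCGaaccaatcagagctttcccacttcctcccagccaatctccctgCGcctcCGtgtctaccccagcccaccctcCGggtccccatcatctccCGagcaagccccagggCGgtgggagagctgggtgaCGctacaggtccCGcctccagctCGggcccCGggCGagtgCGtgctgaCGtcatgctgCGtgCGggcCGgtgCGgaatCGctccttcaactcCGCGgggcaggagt
Those of Pou4f2 (chr8:78436598-78436897, minus strand), Eomes (chr9:118477939-118478238, plus strand) and Slc17a6 (chr7:51621580-51621879, plus strand) had no H3K4me3 within 1 kb of the start site:
Pou4f2: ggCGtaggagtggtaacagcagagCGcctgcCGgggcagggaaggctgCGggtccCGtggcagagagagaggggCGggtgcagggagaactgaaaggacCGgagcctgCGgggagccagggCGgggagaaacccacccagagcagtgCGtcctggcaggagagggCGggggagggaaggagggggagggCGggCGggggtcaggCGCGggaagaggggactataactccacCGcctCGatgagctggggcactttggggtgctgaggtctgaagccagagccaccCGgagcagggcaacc
Eomes: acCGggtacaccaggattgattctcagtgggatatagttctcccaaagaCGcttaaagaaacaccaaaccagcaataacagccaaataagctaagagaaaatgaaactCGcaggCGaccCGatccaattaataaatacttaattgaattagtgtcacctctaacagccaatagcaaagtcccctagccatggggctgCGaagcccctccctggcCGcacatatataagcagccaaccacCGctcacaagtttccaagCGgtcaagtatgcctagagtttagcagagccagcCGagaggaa
Slc17a6: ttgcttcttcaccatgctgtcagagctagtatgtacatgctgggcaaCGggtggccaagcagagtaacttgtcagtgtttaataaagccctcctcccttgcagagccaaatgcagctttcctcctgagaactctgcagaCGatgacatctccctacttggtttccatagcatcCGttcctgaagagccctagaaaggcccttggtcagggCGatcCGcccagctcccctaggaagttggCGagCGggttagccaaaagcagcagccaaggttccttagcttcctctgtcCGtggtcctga

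These promoters differed widely in CpG content. Unmethylated CpG-rich promoters are the usual sites of H3K4me3, and in mammals Polycomb marks are also typical of silent CpG islands. The ratio of observed to expected CpG, which is the number of CpG times the length divided by the product of the C and G counts, was 1.24 at Pou4f1, with 57 CpG, higher than at 99.7% of the 21263 promoters of protein-coding genes. At Isl2 it was 0.678, with 23 CpG. The 3 genes without H3K4me3 at the start had ratios of 0.607 (Eomes, 10 CpG), 0.563 (Pou4f2, 18 CpG) and 0.373 (Slc17a6, 8 CpG), and the second promoter of Slc17a6, 2.8 kb downstream, had 0.264. Sncg, with none of the 4 marks at its start, had 0.323. The median of all promoters was 0.567. Across all promoters, H3K4me3 was within 1 kb of the start in both experiments at 94.5% of those with a ratio of 0.6 or more and at 28.3% of the rest, and H3K27me3 at 9.91% and 29.1%. Of the 6 genes, the 2 with H3K4me3 at the start had the highest ratios, and Eomes, just above 0.6, had no H3K4me3 there. The limit of 0.6 was set after the files were seen, and these values are a description of 7 promoters.

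**Figure D3:**
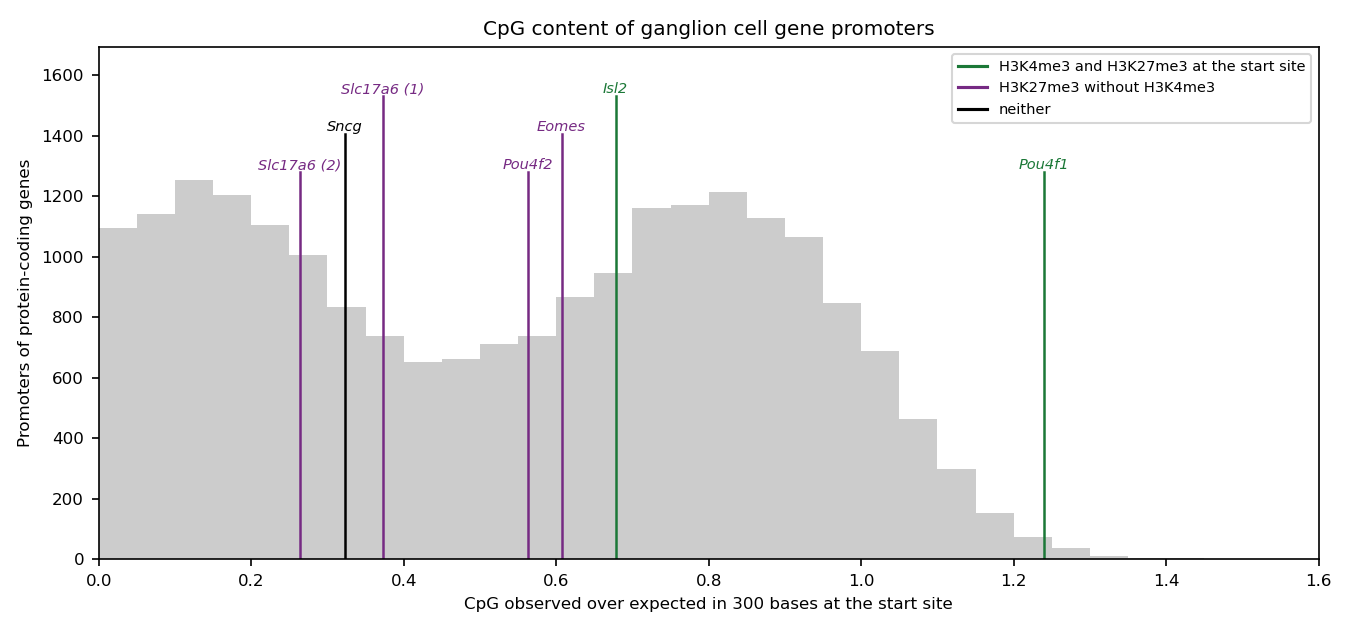
Ratio of observed to expected CpG in 300 bases at the start site. Grey bars count all promoters of protein-coding genes, in steps of 0.05, and lines mark the 7 promoters of 6 ganglion cell genes, with H3K4me3 and H3K27me3 (green), H3K27me3 without H3K4me3 (purple) or neither (black) at the start site in both experiments; Pou4f1 lies at 1.24, near the upper limit of all promoters.

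Short motifs were counted in the 7 promoters on both strands, overlaps included. The E-box CANNTG, a site of bHLH factors, was in 4 of the 7 (Pou4f1, Sncg and both of Slc17a6) and in 69.0% of all promoters. The GC box GGGCGG was in 5 of the 7 and in 46.2% of all promoters, with 5 copies at Pou4f2. The homeodomain motif TAATTA was in 1, the second promoter of Slc17a6, and in 4.53% of all promoters. The TATA motif TATAAA and the T-box motif GGTGTGA were in 0 of the 7, and in 12.6% and 3.68% of all promoters. A match describes the letters of the window only.

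The islands of the 2 main marks at these genes stood at different places in their lists. Every H3K27me3 island at the 7 genes had an authors' p-value among the lowest 13.8% of its list in Exp1 and the lowest 20.6% in Exp2. This is also usual of genes with H3K27me3: the mean place in the list, over both experiments, had a median of 10.4% at the 7 genes and 9.27% at all 5101 genes so marked. The H3K4me3 islands at the 5 genes ranked lower, with 53.4% to 90.7% of the Exp1 list and 46.9% to 69.6% of the Exp2 list at or below their p-value. Their median place was 76.2%, against 34.3% at all 12823 genes with H3K4me3 at an end. The latter value is the place of islands whose p-value is listed as 0, which share places of 37.5% in Exp1 and 31.1% in Exp2, and none of the 5 genes had such an island at an end. Once islands weaker than the median p-value of each list were dropped, H3K4me3 was at 0 of the 10 genes (40.7% of all genes), and H3K27me3 was still at 7 of the 10 (18.8% of all genes). These limits were far apart, at 2.53e-200 (Exp1) and 5.49e-113 (Exp2) for H3K4me3 and 2.72e-25 and 2.03e-14 for H3K27me3. The H3K4me3 islands dropped are thus weak only relative to their own lists, and the counts do not compare the strength of the 2 marks. None of the 10 then carried both marks at the same end (0.95% of all genes), and H3K27me3 without H3K4me3 was at 7 (17.5%).

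**Figure D4:**
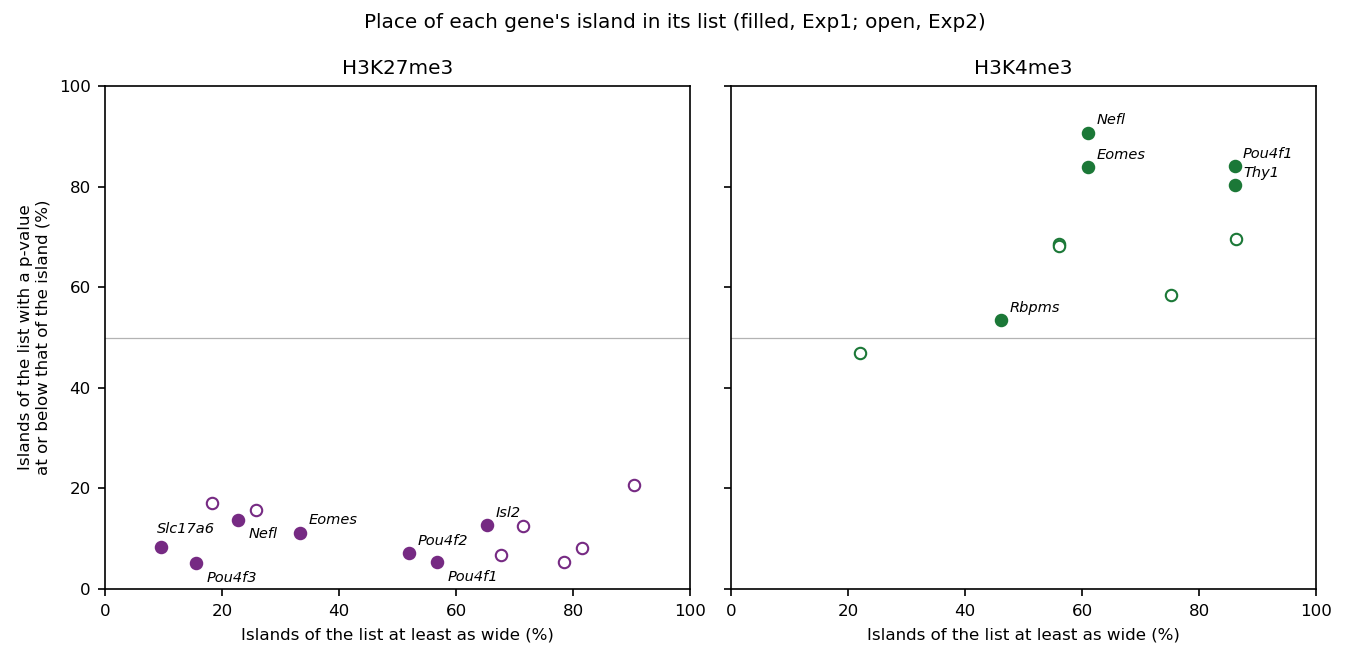
Place in its list of the widest H3K27me3 (left) or H3K4me3 (right) island at an end of each gene, filled for Exp1 and open for Exp2. The horizontal axis, labelled as islands at least as wide, counts the island itself and wider ones of its list in percent, leaving out other islands of equal width. The vertical axis gives the percentage with a p-value at or below that of the island, so strong islands lie low. On it all H3K27me3 islands lie at or below 20.6% and all H3K4me3 islands at or above 46.9%.

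Widths followed another order. The mean H3K27me3 width had a median of 95 kb over the 7 genes, against 260 kb over all 5101 genes with the mark at an end, and each of the 7 was below that median. A wide island is counted there once for every gene it contains, which raises the median over genes. Within the lists each island counts once, and its place by width counts the island itself and wider ones, leaving out ties. At Pou4f1, Pou4f2 and Isl2 these places were 52.0% to 65.3% in Exp1 and 78.4% to 90.5% in Exp2. The places at Nefl and Eomes were 33.3% or less in both experiments. At Pou4f3 and Slc17a6 the experiments disagreed, with places of 15.5% and 9.47% in Exp1 and 67.7% and 71.4% in Exp2. For H3K4me3, the median of the mean widths was 2.40 kb at the 5 genes and 3.20 kb at all genes with the mark, and Pou4f1 was among the narrowest, with 3.40% of those genes narrower. The widths of different marks are not comparable, since H3K27me3 islands come in steps of 5000 bp and H3K4me3 islands in steps of 200 bp.

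Over the gene with 50 kb on both sides, H3K27me3 covered between 0% (Rbpms) and 84.7% (Nefl) as the mean of the experiments. The median over the 10 genes was 35.7%, against 5.59% over all protein-coding genes. In Exp1 alone these medians were 40.5% and 5.44%, and in Exp2 alone 29.5% and 0%, so the value over all genes depended on the experiment. Pou4f3 had 94.7% in Exp1 and 49.3% in Exp2, Eomes 69.5% and 57.3%, and Nefl 84.7% in each. H3K4me3 had a median of 2.74% (4.2% over all genes) and H3K4me1 of 7.64% (10.8%). For H3K4me1 the medians were 9.71% and 14.1% in Exp1 alone and 4.68% and 7.17% in Exp2 alone, lower than over all genes in each. Thy1 stood above the other 9 in both, with 23.2% for H3K4me3 and 35.9% for H3K4me1, most of it over Usp2. An island in both experiments somewhere in these surroundings was found at 7 genes for H3K27me3 (41.4% of all genes), 7 for H3K4me3 (79.0%), 9 for H3K4me1 (78.1%) and 1 for H3K9me3 (30.1%). Within the gene and 1 kb around it the counts were 7 for H3K27me3 (24.5% of all genes), 6 for H3K4me3 (63.1%), 8 for H3K4me1 (62.4%) and 0 for H3K9me3 (16.3%).

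Both H3K4me1 and H3K27me3 were at ends of 6 of the 10 genes, Pou4f1, Pou4f2, Pou4f3, Isl2, Eomes and Nefl, against 7.53% of all protein-coding genes. Of the 7 genes with H3K27me3 these were 6, and of all 5101 genes with that mark at an end 32.3% also had H3K4me1. Around the 7 genes with H3K27me3, 19 of the 24 H3K4me1 islands within 50 kb in Exp1 were wholly inside the H3K27me3 island, and 10 of 14 in Exp2. At Nefl this held for all 3 in Exp1 and both in Exp2. At Isl2 it held for 3 of 6 and 2 of 3. These 7 genes have H3K27me3 over 13.8% to 94.7% of the same surroundings, and containment was not compared with other genes, so nothing particular to them is read from it. By p-value, the H3K4me1 islands at ends of the 8 genes with that mark had a median place of 18.6%, against 31.6% at all genes so marked. Their mean places ran from 8.42% to 42.6%, so not all ranked above that median. By width they were narrower, with a median of 3.05 kb against 4.80 kb at all genes so marked.

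By the 8 shares of covered surroundings, one per library, Pou4f1 and Pou4f2 were each other's nearest gene of the 10, at a Euclidean distance of 8.21 percentage points. Thy1 was the most isolated, with its nearest, Isl2, at 45.1. Among all protein-coding genes more than 1 Mb away, the nearest to Pou4f1 were Fam167a (3.37) and Ccz1 (3.77), to Pou4f2 Asic2 (6.62) and Onecut2 (6.80), and to Isl2 Fezf2 (5.46) and Golga4 (5.50).

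A wider list of 30 other ganglion cell genes was read in the same way. H3K27me3 was at an end of 16 of the 30, or 53.3%, against 23.3% of all protein-coding genes. H3K4me3 was at 20 (66.7%, against 58.6% of all genes), H3K4me1 at 23 (76.7%, against 54.6%) and H3K9me3 at 5 (16.7%, against 13.4%). Of these, the shares for H3K4me3 and H3K9me3 are near those of all genes. H3K9me3 was at Isl1, Atoh7, Foxp2, Tubb3 and Adcyap1. Both H3K4me3 and H3K27me3 were at the same end of 10 (33.3%, against 5.74% of all genes), among them the transcription factor genes Isl1, Atoh7, Ebf1, Tbr1 and Satb1. H3K27me3 without H3K4me3 was at 6 (20%, near the 16.6% of all genes), including the transcription factor genes Ebf3, Irx2 and Dlx1, the neuritin gene Nrn1 and Adcyap1, which encodes the peptide PACAP. Ebf3, Dlx1 and Dlx2 had H3K4me3 in Exp2 alone. H3K4me3 without H3K27me3 was at 10, including Sox4 and Sox11, Rbpms2, the heavy neurofilament gene Nefh and the growth-cone gene Gap43. Among the genes with neither mark were the melanopsin gene Opn4, the nicotinic receptor gene Chrna6 and Spp1. The 3 neurofilament genes thus fell into different states, with H3K27me3 at Nefl and Nefm and not at Nefh.

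Lists of other neurons of the inner retina were read beside the 10 genes, with no test between lists. H3K27me3 was at 8 of 13 amacrine (61.5%), 6 of 10 horizontal (60.0%) and 7 of 16 bipolar cell genes (43.8%). It was at 70.0% of the 10 and 23.3% of all protein-coding genes. H3K4me3 was at 61.5%, 50.0% and 87.5% of these lists, against 50.0% of the 10 and 58.6% of all genes. The amacrine and horizontal shares are thus near that of all genes. H3K27me3 without H3K4me3 was at 30.8%, 40.0% and 12.5%, against 40.0% of the 10 and 16.6% of all genes. The 2 marks coincided at an end of 30.8%, 20% and 31.2%, against 30% of the 10 and 5.74% of all genes. H3K9me3 was at 1, 0 and 3 genes of these lists (7.69%, 0% and 18.8%), against 13.4% of all genes, too near that share to be a feature. H3K4me1 was at 10, 9 and 12 (76.9%, 90.0% and 75.0%), against 54.6% of all genes.

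**Figure D5:**
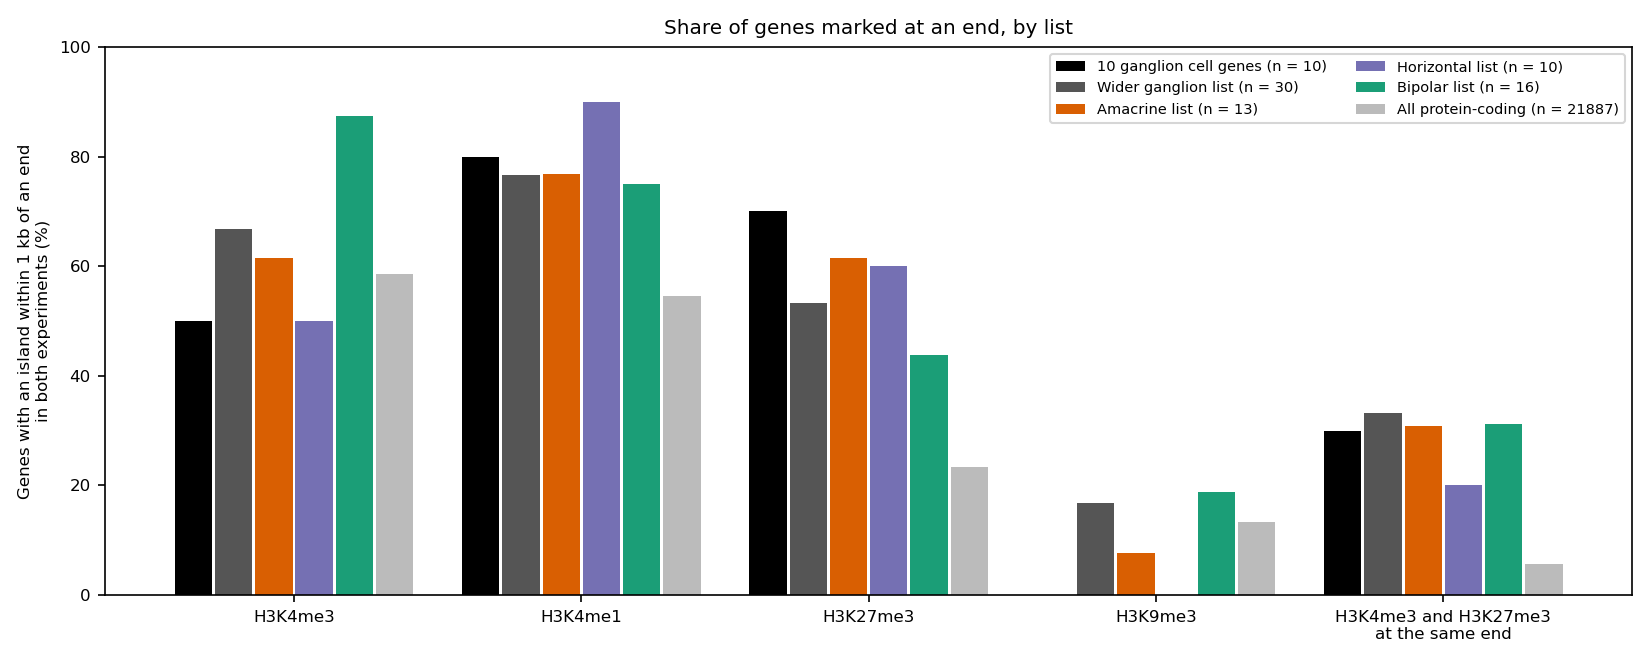
Share of genes with an island within 1 kb of the same end in both experiments, in percent, by mark and list. The bars are shares of each list, whose size is in the legend, with no error. For H3K27me3 the 10 ganglion cell genes stand at 70.0% and all protein-coding genes at 23.3%, and for H3K9me3 the ganglion and horizontal cell lists are at 0.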

How the data were processed

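Each ChIP-seq library of Glast+ cells was assigned to its mark by its label, and the labelled experiment served as its replicate number. Per the labels' protocols, chromatin of 25000 cells was used per precipitation and reads were single-end, 50 bp long. The 2 input libraries were not analysed here. The authors deposited 1 island list per ChIP library, with a position and a p-value per island; per the submitters' processing notes, BWA 0.7.5a, SAMtools 1.3.1, bedtools 2.17, FastQC and SICER were used on mm10. The sources used here do not give SICER's settings, its control or whether the value is a p or a q. The lists hold 4105 (H3K27me3, Exp2) to 52342 (H3K4me1, Exp1) islands.

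Positions are given from 1. Genes came from a RefSeq table on GRCm38.p6 (the mm10 coordinates) without strand; start sites and strand came from the RefSeq promoter table. Overlap of 1 bp counted. Overlap counting was tested on simulated data. Python 3.11.15, numpy 2.4.6 and pandas 2.3.3 were used. The genes and lists were chosen with earlier results of these data known, so no list was tested. All 10 genes were named, and of the wider list up to 5 per state, in list order, except 1 that is not reported here. For like profiles, the 2 nearest genes were taken, for Pou4f1, Pou4f2 and Isl2. The alternatives were each experiment alone, either experiment, windows of 500 bp, 2.5 kb and the whole gene, start sites, 50% coverage, islands with low p-values, and surroundings of 20 and 100 kb.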

Additional observations from a re-analysis of the deposited data

How the results depend on the processing

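Of 60 recomputed counts of marked genes, 57 stayed within 1.5 times the count given, taken as a share where only 6 genes had a start site. This tally is no measure of stability, since some settings could change little. A limit of 0.05 on the p-value dropped 0 H3K4me3 islands in either experiment. The 3 that moved came from dropping islands weaker than the median p-value of each list: H3K4me3 fell from 5 to 0 genes, both marks at the same end from 3 to 0 (0.95% of all genes), and H3K27me3 without H3K4me3 rose from 4 to 7 (17.5%), since fewer H3K4me3 islands were kept. That median was far lower for H3K4me3 than for H3K27me3. H3K27me3 was at 7 of 10 genes and H3K9me3 at 0 of 10 under each alternative over all 10 genes. The median covered share of the surroundings depended on their size. With 20 kb it was 62.5% for H3K27me3 (35.7% with 50 kb, and 0% over all genes with 20 kb), 12.0% for H3K4me1 (7.64%) and 3.98% for H3K4me3 (2.74%), and with 100 kb it was 19.6% for H3K27me3 (11.6% over all genes) and 0.864% for H3K9me3 (0% with 50 kb, and 1.69% over all genes with 100 kb). For H3K4me1 the medians of these genes and of all genes changed order, with 12.0% against 10.9% at 20 kb. With the islands of low p-values the H3K4me3 share was 0%, against 2.63% over all genes. Exp1 and Exp2 alone gave 40.5% and 29.5% for H3K27me3 (5.44% and 0% over all genes). No paired analysis was possible because no result comes from a test. The depth of the libraries is unknown, so a missing island may reflect too few reads.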

Other observations

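The strongest H3K4me3 near several of these genes belonged to their neighbours. The authors' p-value was listed as 0 in both experiments for the islands over Usp2 beside Thy1, for those at the near end of Etfa, 26.1 and 25.9 kb from Isl2, and for those at the near end of Golga4, 19.3 and 18.3 kb from Eomes. The H3K4me3 islands over Thy1 and Isl2, and those just beyond the far end of Eomes, had p-values between 2.97e-55 and 1.22e-18. Those near Eomes lay over Gm33460 and covered 0% of Eomes itself.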
